A study of Mus musculus with 19 samples.

Results

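Gata3, Rora, Ahr, Il17a, Il17f and Il23r were followed in CD4+ and CD8+ tumour-infiltrating lymphocytes (TILs) of mice with liver metastases. They comprise 3 transcription factors of helper and innate lymphocyte lineages, 2 cytokines and 1 cytokine receptor subunit of type 17 cells. Their rows were taken by gene name from the expression tables of both cell types, by a rule that uses no measured value. They are 6 of the 25639 genes in the tables.

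Mice carried 1 of 3 genotypes: Tet2fl/fl, in which both copies of Tet2 are floxed and no Cre is named, as the control; Vav1CreTet2KO, in which Cre under the Vav1 promoter acts across blood cells; and Cd4CreTet2KO, in which Cre under the Cd4 promoter acts in T cells of both the CD4 and the CD8 lineage. All mice received Venus-AKTPM/LOH colorectal cancer cells into the spleen, and TILs were sorted by CD45, CD3ε, CD4 and CD8α from the liver metastases on day 30. Bulk RNA-seq gave 10 CD8 libraries (3 control, 3 Vav1CreTet2KO, 4 Cd4CreTet2KO) and 9 CD4 libraries (3 per genotype), taken from 11 animals, 8 of them represented by both. The labels call replicates of a group biological, and the sources used here give no ages. A replicate number names the same animal in both cell types in control and Vav1CreTet2KO mice, but not in Cd4CreTet2KO. There CD4 replicate 1 and CD8 replicate 3 come from the same animal, and CD4 replicate 3 and CD8 replicate 4 from another. TET2 converts methylated cytosines of DNA to oxidised forms, and its loss in blood cells is a common form of clonal haematopoiesis.

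CD4 helper T cells are sorted into types by lineage factors and the cytokines they make. GATA3 is the lineage factor of Th2 cells and is also needed for T cell development and carried by many regulatory T cells. RORα acts in Th17 cells, which make IL-17A and IL-17F, and is also needed for group 2 innate lymphoid cells. IL-23, a myeloid cytokine, acts through a receptor that contains the Il23r product and sustains IL-17-producing cells, while the aryl hydrocarbon receptor (AHR) is a ligand-activated factor that Th17 and regulatory cells use to sense diet-derived and tryptophan-derived compounds.

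The tables placed Gata3 (ENSMUSG00000015619) on the minus strand of chromosome 2 from 9861889 to 9894845. Rora (ENSMUSG00000032238) lies on the plus strand of chromosome 9 from 68561068 to 69295528. Ahr (ENSMUSG00000019256) lies on the minus strand of chromosome 12 from 35547973 to 35585037, and Il23r (ENSMUSG00000049093) on the minus strand of chromosome 6 from 67399916 to 67468839. Il17a (ENSMUSG00000025929; chromosome 1, 20801129 to 20804720, plus strand) and Il17f (ENSMUSG00000041872; chromosome 1, 20847370 to 20860841, minus strand) are neighbours, with 42649 bases between the gene bodies and transcription of each towards the other. The submitters' processing notes name GRCm38 and mm10, but the starts in the tables differ from those of RefSeq on GRCm38 by -92336 to 70224 bases, so the build of the table coordinates was not settled. Each value counts reads over a whole gene, and the sources do not say whether strand was used in counting, so reads from an antisense transcript over a gene cannot be told apart from its own.

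The sequence upstream of a listed start site is shown for the effector genes of the Th17 programme, because these 3 members share letters there that the choice of genes did not use. The 250 bases before the start come from RefSeq (GRCm38.p6), read 5′ to 3′ on the strand of the gene, at positions of that build, which cannot be set beside the table coordinates: chr1:20730655-20730904 (plus) for Il17a, chr1:20784271-20784520 (minus) for Il17f and chr6:67491856-67492105 (minus) for Il23r. Capitals mark AGGTCA, the half-site that ROR proteins and other nuclear receptors bind, or TGACCT, the same half-site on the other strand.
Il17a: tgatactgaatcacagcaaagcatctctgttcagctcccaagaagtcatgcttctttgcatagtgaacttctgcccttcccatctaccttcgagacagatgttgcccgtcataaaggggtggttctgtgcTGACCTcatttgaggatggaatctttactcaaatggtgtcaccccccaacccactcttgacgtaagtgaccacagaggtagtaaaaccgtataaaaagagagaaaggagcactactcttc
Il17f: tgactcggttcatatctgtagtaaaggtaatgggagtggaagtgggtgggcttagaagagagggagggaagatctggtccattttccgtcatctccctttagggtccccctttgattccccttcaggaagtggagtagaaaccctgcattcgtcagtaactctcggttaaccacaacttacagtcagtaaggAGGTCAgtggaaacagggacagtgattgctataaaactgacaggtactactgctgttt
Il23r: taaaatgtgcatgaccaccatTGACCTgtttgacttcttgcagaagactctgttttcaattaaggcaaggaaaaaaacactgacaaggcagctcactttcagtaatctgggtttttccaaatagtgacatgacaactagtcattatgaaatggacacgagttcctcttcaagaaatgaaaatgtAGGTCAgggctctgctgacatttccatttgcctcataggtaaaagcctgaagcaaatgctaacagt
The half-site begins at position -120 from the start of Il17a, at -58 of Il17f, and at -229 and -66 of Il23r. The Il17a and Il23r stretches end where the RefSeq gene body begins. The Il17f stretch lies inside its gene body (20777146 to 20785274), so the start used there is not the outermost one. The Gata3 and Rora windows also lie inside their gene bodies. In windows from 250 bases before to 50 bases after the start, searched on both strands, 16.26% of 32851 RefSeq promoters held AGGTCA. The table held 5 of the 6 members (Ahr had no entry), and neither the Gata3 nor the Rora window held AGGTCA. The AHR core GCGTG was found once, at -167 of Rora, against 32.39% of all promoters. The GATA letters AGATAA or TGATAA were in none of the 5 windows and in 18.61% of all promoters. A match of letters is a description of the window and not a binding site.

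Levels are given in RPKM, reads scaled to gene length and to the mapped reads of the library as deposited, which can be set side by side between genes. Reads on genes ranged from 707866 to 17575500 per CD4 library, as deposited, and from 8189300 to 20327800 per CD8 library, as recovered from the RPKM values. Vav1CreTet2KO CD4 replicate 1 stood apart, with the lowest depth, 7761 genes above 0 and a correlation with its CD4 counterparts of 0.813 (median Pearson r of log2(RPKM + 1)). Vav1CreTet2KO CD8 replicate 1 also stood apart, with the fewest genes above 0 among CD8 libraries (10762) and the lowest median correlation (0.909). Odd numbers made up 50.6% of its counts from 1 to 20, and 13.1% to 30.7% of those in the other 18 libraries, where read numbers were thus mostly even. Whether both mates of a pair were counted, and whether its recovered step is 1 read or 1 pair, was not settled. T cell markers (10 of 10) were above 0 in all 19 libraries. Cd4 ranged from 39.5 to 122.4 RPKM in CD4 libraries, where Cd8a reached at most 0.792, Cd8b1 7.73 and Crtam 3.69. Cd8a ranged from 99.9 to 230 RPKM in CD8 libraries, where Cd4 was 0 in controls and reached 7.68 in Cd4CreTet2KO replicate 1. Cd40lg was at 0 to 1.35 RPKM in control, 7.82 to 12.5 in Vav1CreTet2KO and 0.647 to 3.30 in Cd4CreTet2KO CD8 libraries. Zbtb7b was at 2.82 to 4.93, 1.07 to 2.77 and 0.542 to 3.52 RPKM in the same groups. Of 3 CD4 lineage markers, limma called 1 higher in Vav1CreTet2KO than in control CD8 cells (1.46% of all genes called). EdgeR on recovered reads called 0 of them. Tet2, the deleted gene, was at 3.87 to 7.02 RPKM in control, 2.77 to 5.65 in Vav1CreTet2KO and 4.53 to 7.28 in Cd4CreTet2KO CD4 libraries, and at 6.57 to 8.06, 2.93 to 6.28 and 3.01 to 7.57 in the CD8 libraries. It was called in no comparison, and values over the whole gene do not resolve the floxed exon, so they do not check the genotype labels.

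Gata3 was present in every library and was the most abundant member in CD4 cells. In CD4 libraries (replicates 1 to 3), Gata3 was at 48.3, 38.5 and 31.5 RPKM in controls, at 21.0, 19.3 and 21.9 RPKM in Vav1CreTet2KO and at 30.7, 42.0 and 35.5 RPKM in Cd4CreTet2KO. In CD8 libraries it was at 17.8, 16.997 and 11.2 RPKM in controls, at 13.5, 8.10 and 8.14 RPKM in Vav1CreTet2KO and at 5.05, 4.50, 6.48 and 9.58 RPKM in the 4 Cd4CreTet2KO libraries. The low group thus differed by cell type: in CD4 cells all 3 Vav1CreTet2KO libraries lay below every library of both other genotypes, and in CD8 cells all 4 Cd4CreTet2KO libraries lay below every control, with the Vav1CreTet2KO libraries overlapping both. Whether the genotype differences differ between the cell types was not tested. In order of mean level, Gata3 was at 39.4 ± 8.42 RPKM (SD, n = 3) in CD4 controls, 36.1 ± 5.68 (n = 3) in CD4 Cd4CreTet2KO, 20.7 ± 1.33 (n = 3) in CD4 Vav1CreTet2KO, 15.3 ± 3.58 (n = 3) in CD8 controls, 9.93 ± 3.14 (n = 3) in Vav1CreTet2KO CD8 cells and 6.40 ± 2.28 (n = 4) in Cd4CreTet2KO CD8 cells. Of these neighbours, CD4 Vav1CreTet2KO stood clear of both its neighbours, while the other neighbouring pairs overlapped.

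Rora was also present in every library, and its high group was CD4 Cd4CreTet2KO. Rora in CD4 cells was at 20.4, 16.2 and 10.9 RPKM in controls, at 12.1, 12.7 and 11.3 RPKM in Vav1CreTet2KO and at 27.7, 24.7 and 26.3 RPKM in Cd4CreTet2KO. In CD8 cells it was at 12.5, 12.98 and 7.81 RPKM in controls, at 13.2, 12.2 and 5.82 RPKM in Vav1CreTet2KO and at 4.72, 4.13, 4.796 and 12.7 RPKM in Cd4CreTet2KO. All 3 CD4 Cd4CreTet2KO libraries lay above all 6 other CD4 libraries, and in CD8 cells the 3 groups overlapped. Cd4CreTet2KO CD8 replicate 4 lay among the controls, and replicates 1 to 3 lay below every control and Vav1CreTet2KO library. The mean level fell in the order CD4 Cd4CreTet2KO (26.2 ± 1.52 RPKM, SD, n = 3), CD4 control (15.8 ± 4.796, n = 3), CD4 Vav1CreTet2KO (12.05 ± 0.734, n = 3), CD8 control (11.1 ± 2.85, n = 3), CD8 Vav1CreTet2KO (10.4 ± 4.02, n = 3) and CD8 Cd4CreTet2KO (6.60 ± 4.11, n = 4). CD4 Cd4CreTet2KO stood clear of the next group, and each later neighbouring pair overlapped.

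Ahr was present in every library, at up to 8.69 RPKM in CD8 and 7.84 RPKM in CD4 cells. Ahr in CD8 cells was at 7.01, 5.07 and 8.69 RPKM in controls, at 6.72, 7.44 and 2.73 RPKM in Vav1CreTet2KO and at 5.44, 2.47, 4.56 and 4.52 RPKM in Cd4CreTet2KO. The CD4 libraries had 7.84, 4.76 and 4.32 RPKM in controls, 3.32, 0.682 and 2.87 RPKM in Vav1CreTet2KO and values of 5.36, 3.65 and 3.87 RPKM in Cd4CreTet2KO. The CD4 Vav1CreTet2KO libraries lay below all other CD4 libraries, and the 3 CD8 groups overlapped. The group means ran from 6.92 ± 1.81 RPKM (SD, n = 3) in CD8 controls through 5.64 ± 1.92 (n = 3) in CD4 controls, 5.63 ± 2.54 (n = 3) in CD8 Vav1CreTet2KO, 4.30 ± 0.929 (n = 3) in CD4 Cd4CreTet2KO and 4.25 ± 1.26 (n = 4) in CD8 Cd4CreTet2KO to 2.29 ± 1.41 (n = 3) in CD4 Vav1CreTet2KO, and every neighbouring pair overlapped.

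The cytokine genes were low and scattered. Il17a in CD4 cells was at 5.31, 1.26 and 3.14 RPKM in controls (at least 50 reads each), at 11.1, 8.12 and 1.86 RPKM in Vav1CreTet2KO (24, 269 and 42 reads) and at 1.21, 0.800 and 3.00 RPKM in Cd4CreTet2KO (54, 43 and 138 reads). The highest value, in Vav1CreTet2KO replicate 1, rests on 24 reads in the shallowest library. Il17a in CD8 cells was at 0, 0.738 and 1.34 RPKM in controls, at 0, 4.14 and 0.895 RPKM in Vav1CreTet2KO and at 0.307, 0.636, 1.62 and 1.22 RPKM in Cd4CreTet2KO. The genotypes overlapped in both cell types. In the 2 CD8 libraries at 0, a count of 0 allows up to 3 reads, or 0.151 RPKM in the control and 0.109 RPKM in the Vav1CreTet2KO library. This limit, like the read counts, covers counting error only, and it would be higher if both mates of a pair were counted, since 3 pairs would then give 6 reads.

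Il17f was at 0 in most libraries although Il17a, its neighbour on chromosome 1, had reads in nearly all. In CD4 cells Il17f had reads in replicate 3 of each genotype, at 1.51 RPKM (86 reads) in the control, 0.915 RPKM (26 reads) in Vav1CreTet2KO and 0.104 RPKM (6 reads) in Cd4CreTet2KO, and was at 0 in the other 6 libraries. In CD8 cells it was at 0.0495 RPKM (2 reads) in control replicate 3, at 0.0230 RPKM (2 reads) and 0.233 RPKM (14 reads) in Cd4CreTet2KO replicates 2 and 4, and at 0 in the other 7 libraries. For CD4 Vav1CreTet2KO replicate 1 a count of 0 allows an Il17f level of up to 1.10 RPKM, so a level like that of the highest other Vav1CreTet2KO library was not detectable there. In the other CD4 libraries the limit was between 0.0444 and 0.106 RPKM.

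Il23r had reads in 8 of 9 CD4 libraries and in 3 of 10 CD8 libraries. In CD4 cells Il23r was at 0.369, 1.64 and 2.89 RPKM in controls, at 0, 1.53 and 0.458 RPKM in Vav1CreTet2KO, where the 0 of replicate 1 allows up to 0.653 RPKM, and at 0.993, 0.709 and 1.27 RPKM in Cd4CreTet2KO. In CD8 cells it was at 0.660 RPKM (38 reads) in control replicate 2, at 0.578 RPKM (64 reads) and 0.0408 RPKM (6 reads) in Cd4CreTet2KO replicates 1 and 2, and at 0 in the other 7 libraries, including all 3 of Vav1CreTet2KO. The genotypes overlapped in CD4 cells.

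**Figure D1:**
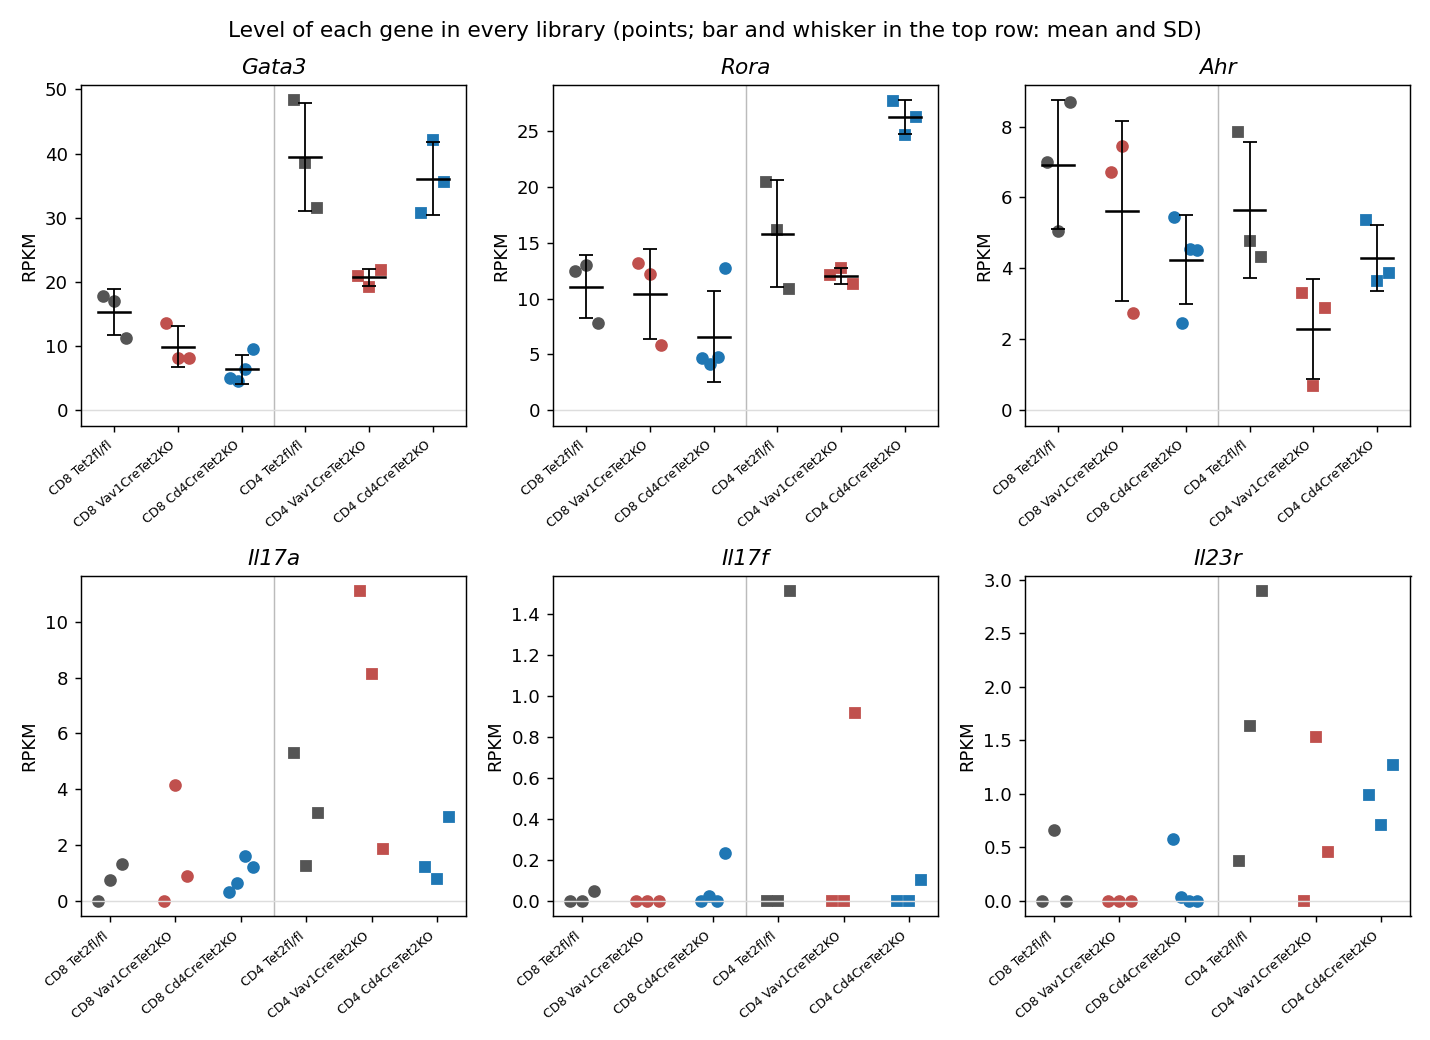
RPKM of each of the 6 genes (panels, vertical axis, linear) by genotype and cell type (horizontal axis). Each point is 1 library, circles for CD8 and squares for CD4 cells, and bars in the panels of Gata3, Rora and Ahr give the mean and SD. Gata3 in CD4 Vav1CreTet2KO (19.3 to 21.9 RPKM) lies below the other CD4 groups, Rora in CD4 Cd4CreTet2KO (24.7 to 27.7 RPKM) lies above them, and most Il17f points lie at 0.

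The 2 tables may have been scaled separately, so CD4 and CD8 levels were not tested against each other. Side by side in the 8 animals that gave both cell types, Gata3 was higher in the CD4 library in 8 of 8 animals, Rora in 7, Il17a in 7 and Il23r in 7 with 1 animal at 0 in both. Ahr was higher in the CD4 library in 3 of 8 animals and in the CD8 library in 5. Il17f was higher in the CD4 library in 2 animals, higher in the CD8 library in 1 and at 0 in both in 5.

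The comparison of Vav1CreTet2KO with control CD4 cells asked what Cre across blood cells changed in tumour CD4 TILs. Gata3 differed by -0.80 on the log2 scale (SE 0.28) and Ahr by -1.15 (SE 0.59), each with all Vav1CreTet2KO libraries below all controls, and neither passed the test (edgeR quasi-likelihood, Benjamini-Hochberg adjusted p = 0.302 and 0.466; unadjusted p = 0.0122 and 0.0717). Rora differed by -0.27 (SE 0.25), Il23r by -1.20 (SE 1.31) and Il17a by 1.20 (SE 1.04), with adjusted p of 0.732, 0.789 and 0.716 in the same edgeR fit. Of 5 members tested (Il17f fell under the count filter), 0 were called, 1 had an unadjusted p under 0.05, and 0 were called by DESeq2 or by limma on RPKM. Over all 13554 genes tested, edgeR called 0.00738%, 11.9% had an unadjusted p under 0.05, and 12.5% lay lower with no overlap, against 2 of the 5 members. The median difference of the tested members was -0.80 and that of all genes -0.16.

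Cd4CreTet2KO against control CD4 cells asked the same of Cre in T cells. Rora was 0.84 higher (SE 0.25), with all 3 Cd4CreTet2KO libraries above all 3 controls, an unadjusted p of 0.00459 and an edgeR adjusted p of 0.9998. Gata3 differed by -0.01 (SE 0.27), Ahr by -0.30 (SE 0.58), Il23r by -0.66 (SE 1.29) and Il17a by -0.83 (SE 1.03), each with an adjusted p of 0.9998 in that fit. No member was called (0 of 5; 1 at an unadjusted p under 0.05; 0 by DESeq2; 0 by limma), where edgeR called 0.0295% of all genes and 2.5% had an unadjusted p under 0.05. Rora was the 1 member lying higher without overlap, as did 5.83% of all genes. The members' median was -0.30, against 0.00 for all genes.

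Between the 2 knockout genotypes, Rora, Gata3 and Ahr each lay lower in Vav1CreTet2KO than in Cd4CreTet2KO CD4 cells. Rora differed by -1.10 (SE 0.25; fold 2.15; edgeR unadjusted p = 5.847e-04, adjusted p = 0.103, rank 75 of 13554 genes by p). Gata3 differed by -0.79 (SE 0.28, unadjusted p = 0.0132, adjusted p = 0.330 in the same edgeR fit) and Ahr by -0.86 (SE 0.59, adjusted p = 0.657), and for these 3 genes no library of one genotype reached the range of the other. Il17a was 2.03 higher (SE 1.07, unadjusted p = 0.0780, adjusted p = 0.515) with overlapping groups, and Il23r differed by -0.54 (SE 1.29, adjusted p = 0.930). No member was called by edgeR (0 of 5; 2 at an unadjusted p under 0.05), against 0.0664% of all genes called and 10.7% at an unadjusted p under 0.05. DESeq2 called Rora (adjusted p = 0.0109), and limma on RPKM called 0 members. The 3 members that lay lower without overlap compare with 15.3% of all genes that did. The median was -0.79 for the members and -0.19 for all genes. The call of Rora depended on the setting: it passed without a filter on low counts (edgeR adjusted p = 0.0237) and without Vav1CreTet2KO replicate 3 (0.0272), and in the other edgeR and limma settings its adjusted p lay between 0.103 and 0.474.

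Markers of other cells were also read in these CD4 groups, and edgeR called 0 of 10 tested genes of each of the next 2 lists in every CD4 comparison. Genes of dendritic cells and of MHC class II (11 in the list) had a summed level of 459 to 853 RPKM in Vav1CreTet2KO CD4 libraries, 90.2 to 233 in controls and 98.5 to 250 in Cd4CreTet2KO, although Flt3 and Xcr1 were at 0 in at least 1 Vav1CreTet2KO library. In Vav1CreTet2KO, 6 had an unadjusted edgeR p under 0.05 against control and 6 against Cd4CreTet2KO (11.9% and 10.7% of all genes), and DESeq2 called 5 in each. Macrophage and monocyte genes (12 in the list) summed to 29.5 to 62.3 RPKM in Vav1CreTet2KO, 3.99 to 12.9 in Cd4CreTet2KO and 1.33 to 57.7 in control CD4 libraries. Between the 2 knockout genotypes their median difference was 2.54, with 0 of 10 tested genes called by edgeR, 5 at an unadjusted p under 0.05 (10.7% of all genes) and 2 called by DESeq2, and Adgre1 and Fcgr1 were at 0 in at least 1 Vav1CreTet2KO library. Foxp3, the factor of regulatory T cells, was at 76.6, 77.4 and 51.7 RPKM in controls, 6.15, 53.6 and 20.005 RPKM in Vav1CreTet2KO, with the Cd4CreTet2KO libraries at 52.6, 94.4 and 69.7 RPKM. The part of these in the levels of Gata3, Rora and Ahr was not tested. In bulk libraries, fewer cells of a type and less RNA per cell cannot be told apart. Without Vav1CreTet2KO replicate 1, the Gata3 difference from controls was -0.82 (adjusted p = 0.248 in edgeR), and the Rora difference from Cd4CreTet2KO was -1.13 (adjusted p = 0.103).

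In CD8 cells, differences are on the log2(RPKM + 1) scale, which understates those of low genes, and were tested with limma. Against controls, Vav1CreTet2KO had Gata3 at -0.59 (SE 0.32, adjusted p = 0.354), Ahr at -0.32 (SE 0.36, adjusted p = 0.674), Rora at -0.12 (SE 0.41, adjusted p = 0.906) and Il17a at 0.42 (SE 0.54, adjusted p = 0.713) by limma. All 4 overlapped, and 0 of 4 members tested were called (0 at an unadjusted p under 0.05; 0 by edgeR on recovered reads), where limma called 1.46% of 10224 genes, 17.3% had an unadjusted p under 0.05 and 19.9% did not overlap. Il17f and Il23r fell under the filter of 1 RPKM in 3 libraries. The members' median was -0.22, against -0.11 for all genes. Without Vav1CreTet2KO replicate 1, which stood apart, the differences were -0.82 for Gata3, -0.32 for Rora, -0.47 for Ahr and 0.97 for Il17a, and no member was called by limma. The signs of Rora and Ahr rest on Vav1CreTet2KO replicate 3, and that of Il17a on replicate 2: without that library the differences were 0.21, 0.05 and -0.21.

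Against controls, CD8 Cd4CreTet2KO had the lowest Gata3 of all groups. Gata3 differed by -1.16 (SE 0.29; fold 2.24; limma unadjusted p = 0.00177, adjusted p = 0.101), with all 4 Cd4CreTet2KO libraries below all 3 controls. Rora differed by -0.77 (SE 0.38, adjusted p = 0.450) and Ahr by -0.60 (SE 0.34, adjusted p = 0.509) in the same limma fit, with overlapping groups, and Il17a differed by 0.23 (SE 0.51, adjusted p = 0.902). No member was called (0 of 4; 1 at an unadjusted p under 0.05; 0 by edgeR on recovered reads), where limma called 0.567% of all genes and 12.4% had an unadjusted p under 0.05. Gata3 was the 1 tested member lying lower without overlap, as did 14% of all genes. The members' median was -0.69 and that of all genes -0.15. Dividing RPKM by size factors moved the median of all genes by 0.16, to 0.00, and with that scaling Gata3 was at -0.98 (limma adjusted p = 0.153), Rora at -0.59 and Ahr at -0.44. Gata3 passed the test when only these 2 groups were in the fit (limma adjusted p = 0.0457).

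Macrophage and monocyte markers (12 genes) summed to 269, 141, 5.67 and 8.66 RPKM in Cd4CreTet2KO CD8 replicates 1 to 4, against 9.52 to 23.4 in controls, and neutrophil markers to 88.7, 53.9, 0.663 and 0.766. Without replicates 1 and 2, Gata3 differed from controls by -0.85 (limma adjusted p = 0.562). Without replicate 4, whose Rora level lay among the controls, Rora differed by -1.09 (limma adjusted p = 0.181). The dendritic cell and MHC class II list summed to 62.5 to 413 RPKM in controls, 1027 to 2756 in Vav1CreTet2KO and 348 to 2987 in Cd4CreTet2KO CD8 libraries. Of its 11 genes, limma called 5 higher in Vav1CreTet2KO and 0 in Cd4CreTet2KO against control (1.46% and 0.567% of all genes). In each comparison 10 had an unadjusted limma p under 0.05 (17.3% and 12.4% of all genes), and edgeR on recovered reads called 1. The part of these other cells in the member levels was not tested.

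Vav1CreTet2KO against Cd4CreTet2KO CD8 cells showed Gata3 at 0.57 (SE 0.29), Rora at 0.64 (SE 0.38), Ahr at 0.29 (SE 0.34) and Il17a at 0.19 (SE 0.51), with limma adjusted p of 0.721, 0.721, 0.820 and 0.919. Limma called 0% of all genes here (0 of 10224; 649 genes, or 6.35%, at an unadjusted p under 0.05) and 0 of the 4 members (0 at an unadjusted p under 0.05; 0 by edgeR on recovered reads). All 4 overlapped, as all but 4.53% of genes did. The median was 0.43 for the members and 0.04 for all genes. The 3 comparisons in each cell type share libraries, so their values are given side by side and were not counted as separate evidence.

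**Figure D2:**
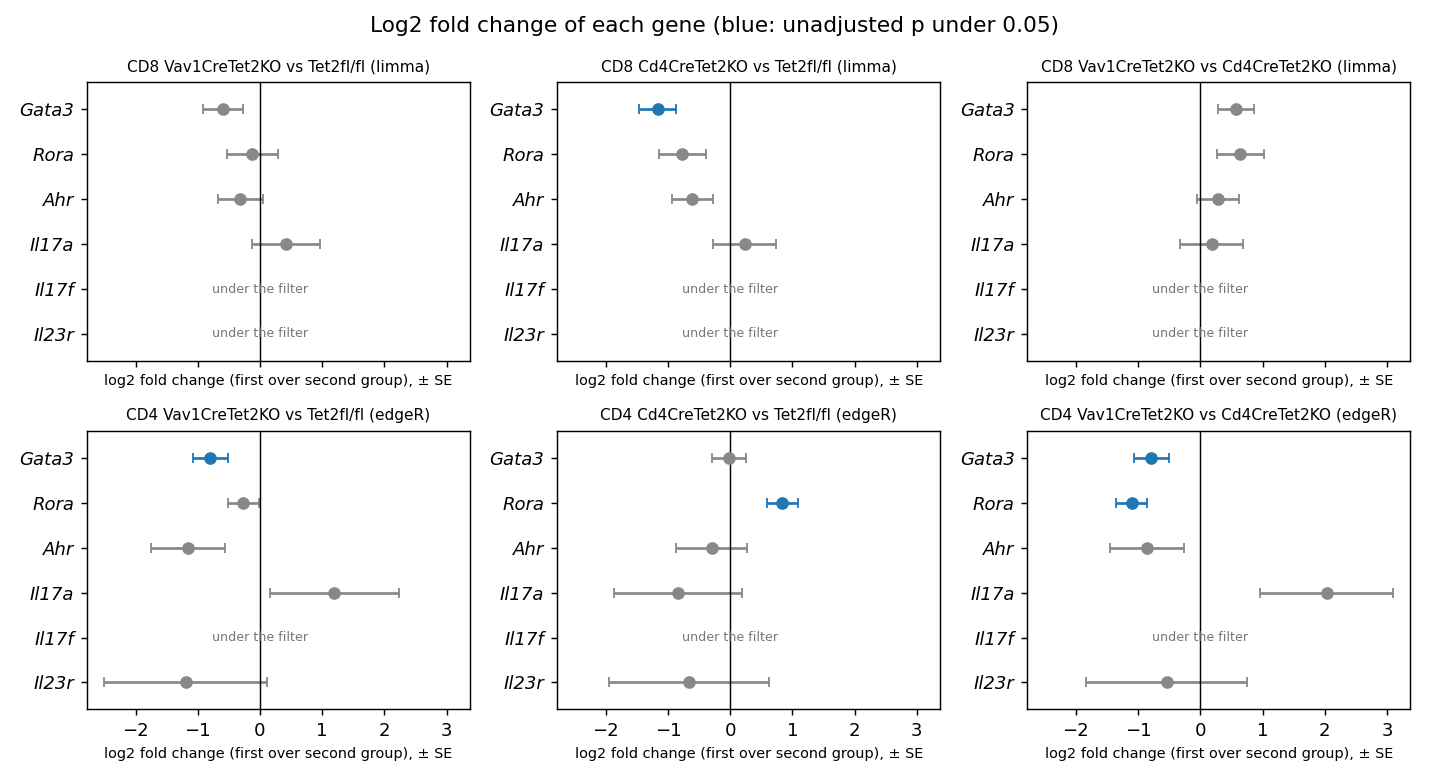
Log2 difference of each of the 6 genes (vertical axis) with its SE, in 3 comparisons per cell type (panels), from edgeR in CD4 and from limma on log2(RPKM + 1) in CD8 cells. Blue marks an unadjusted p under 0.05, and genes under the filter are written as such. Rora at -1.10 in Vav1CreTet2KO against Cd4CreTet2KO CD4 cells and Gata3 at -1.16 in Cd4CreTet2KO against control CD8 cells are the values with the smallest p, and no gene passed the adjusted threshold.

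**Figure D3:**
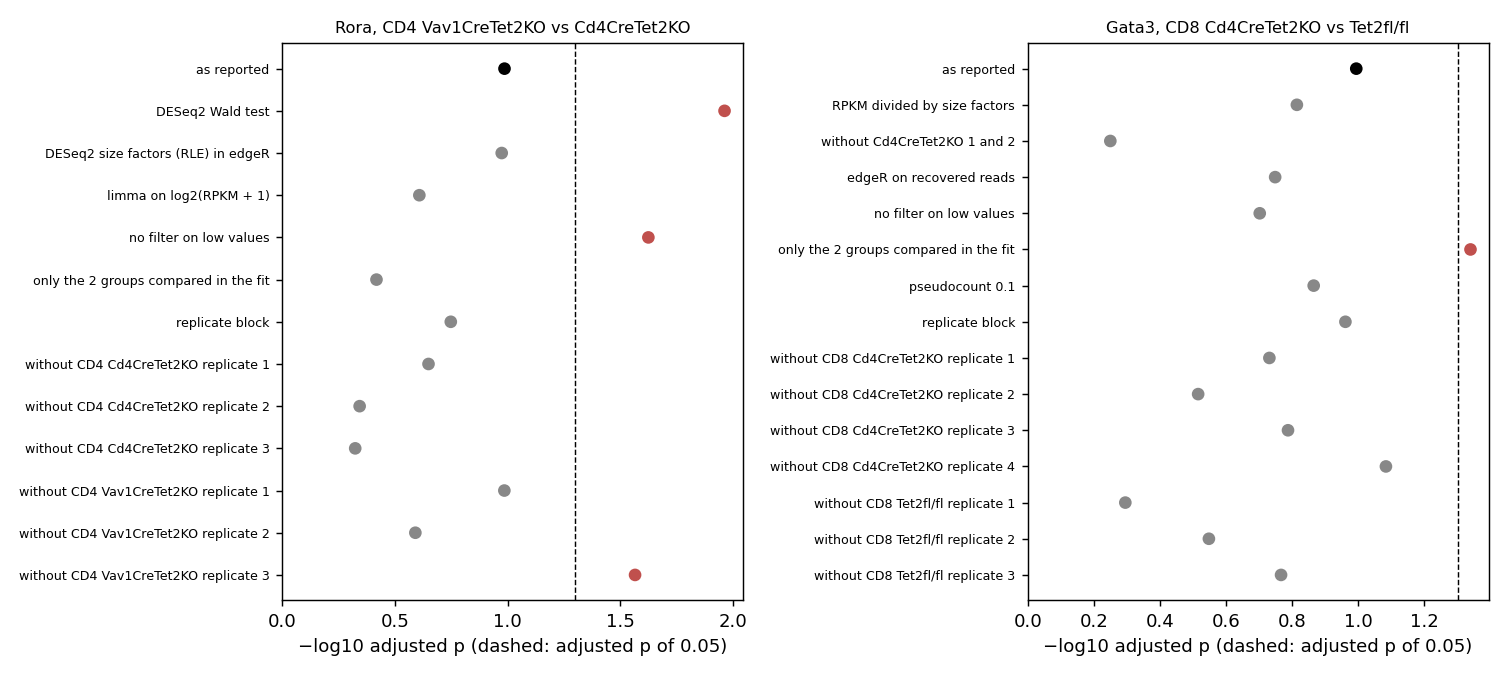
Negative log10 of the adjusted p (horizontal axis) under each setting (vertical axis) for Rora in Vav1CreTet2KO against Cd4CreTet2KO CD4 cells (left) and Gata3 in Cd4CreTet2KO against control CD8 cells (right). The dashed line marks 0.05 and red points lie past it: 3 settings for Rora and 1 for Gata3.

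The other helper lineage genes set these levels in context. Tbx21, the Th1 factor T-bet, was at 9.21 to 11.7 RPKM in control, 5.003 to 23.6 in Vav1CreTet2KO and 4.09 to 7.88 in Cd4CreTet2KO CD4 libraries, and at 31.3 to 43.4, 26.7 to 52.5 and 11.5 to 28.5 RPKM in the CD8 libraries. Stat3, which carries the IL-6 and IL-23 signal, was at 37.6, 30.3 and 36.0 RPKM in control, 21.3, 25.7 and 20.7 in Vav1CreTet2KO and 40.5, 39.2 and 43.1 in Cd4CreTet2KO CD4 libraries, with all Vav1CreTet2KO libraries lowest (edgeR log2 difference from Cd4CreTet2KO -0.85, adjusted p = 0.166). In Vav1CreTet2KO CD4 cells, 12.5% of all genes lay below control and 15.3% below Cd4CreTet2KO without overlap. In CD8 cells Stat3 was at 44.1 to 65.1 RPKM in control, 16.7 to 31.7 in Vav1CreTet2KO and 19.4 to 39.5 in Cd4CreTet2KO libraries. Both knockout groups thus lay below every control there (limma differences -1.20 and -0.86, adjusted p = 0.0827 and 0.227). Of all genes, 19.9% did not overlap control in Vav1CreTet2KO CD8 cells, in either direction, and 14% lay lower in Cd4CreTet2KO. Ifng, the Th1 cytokine, was at 13.8 to 26.5 RPKM in control, 29.1 to 38.7 in Vav1CreTet2KO and 4.67 to 12.7 in Cd4CreTet2KO CD4 libraries. Its edgeR differences from control were 0.86 in Vav1CreTet2KO and -1.08 in Cd4CreTet2KO (adjusted p = 0.508 and 0.9998). Vav1CreTet2KO differed from Cd4CreTet2KO by 1.93 (edgeR adjusted p = 0.152), so Ifng was not called. In CD8 cells Ifng was at 86.0 to 163 RPKM in control, 57.0 to 161 in Vav1CreTet2KO and 13.8 to 76.2 in Cd4CreTet2KO libraries. Its limma differences from control were -0.32 and -2.01 (adjusted p = 0.782 and 0.0954), so it was not called there either. All Cd4CreTet2KO CD8 libraries lay below every control, as for 14% of all genes. Ccr6, the chemokine receptor of Th17 cells, was at 7.52 to 9.41 RPKM in controls, at 27.3, 1.49 and 5.64 RPKM in Vav1CreTet2KO and at 11.5 to 17.5 RPKM in Cd4CreTet2KO CD4 libraries.

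Of the Th2 cytokine genes, which GATA3 activates in Th2 cells, Il4 and Il5 were at 0 in most libraries, and Il13 had reads in all 3 CD8 controls. Il4 was at 0 in all 10 CD8 and all 3 control CD4 libraries and reached at most 0.725 RPKM elsewhere, and Il5 was at 0 in the same libraries and reached at most 0.786 RPKM. Il13 was at 2.55, 2.01 and 0.726 RPKM (52, 56 and 24 reads) in control CD8 libraries. It was at 0 in all 3 Vav1CreTet2KO CD8 libraries and in replicates 2 to 4 of Cd4CreTet2KO, and at 0.0373 RPKM (2 reads) in Cd4CreTet2KO replicate 1. Il13 fell under the CD8 filter, so this difference was not tested. In CD4 cells Il13 was at 0 in all 3 Vav1CreTet2KO libraries, at 1.86, 0 and 1.68 RPKM in controls and at 0, 0.181 and 1.65 RPKM in Cd4CreTet2KO. Il1rl1, the IL-33 receptor ST2, was at 15.2, 11.2 and 7.80 RPKM in control, 0.314, 6.43 and 3.54 in Vav1CreTet2KO and 18.1, 16.2 and 17.6 in Cd4CreTet2KO CD4 libraries (edgeR difference of Vav1CreTet2KO from Cd4CreTet2KO -2.30, adjusted p = 0.159). As for Rora, the mean of Il1rl1 was highest in Cd4CreTet2KO and lowest in Vav1CreTet2KO, and the 3 ranges of Il1rl1 did not overlap. Without overlap, 12.5% of all genes lay lower in Vav1CreTet2KO than in control CD4 cells, and 15.3% lower than in Cd4CreTet2KO. In Cd4CreTet2KO, 5.83% lay higher than in control.

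Of AHR target genes, Tiparp was at 10.2, 8.78 and 5.70 RPKM in control, 38.4, 26.3 and 7.88 in Vav1CreTet2KO and 11.3, 6.54 and 10.5 in Cd4CreTet2KO CD4 libraries, while Ahr itself was lowest in Vav1CreTet2KO. The edgeR difference of Tiparp from controls was 1.65 in Vav1CreTet2KO (SE 0.47, adjusted p = 0.209). Cyp1b1 and Ahrr, both classic AHR targets, were at 0 in most libraries, with Cyp1b1 at most 0.273 RPKM and Ahrr at most 0.236 RPKM. Il22, a cytokine gene that AHR induces, was at 0 in all CD8 libraries and reached 4.59 RPKM (144 reads) in CD4 Vav1CreTet2KO replicate 2, the library with the most Il17a reads. Maf was at 10.5 to 21.8 RPKM in CD4 libraries and at 0.358 to 2.69 RPKM in CD8 libraries. Bcl6, the factor of follicular helper cells, was at 1.29, 1.72 and 2.497 RPKM in control and 11.98, 5.97 and 2.90 RPKM in Vav1CreTet2KO CD4 libraries, while the Cd4CreTet2KO libraries had 3.61, 3.29 and 5.80 RPKM. The edgeR differences of Bcl6 from control were 1.99 in Vav1CreTet2KO and 1.29 in Cd4CreTet2KO (adjusted p = 0.272 and 0.9998). Its value of 11.98 RPKM rests on 78 reads in the shallowest library. The Cd4CreTet2KO libraries lay above every control, as for 5.83% of all genes. Of the 16 reference genes, 13 were tested in CD4 and 9 in CD8 cells, and 0 were called in any of the 6 comparisons. In the CD4 comparisons (Vav1CreTet2KO and Cd4CreTet2KO with control, then with each other), 7, 2 and 6 had an unadjusted edgeR p under 0.05, against 11.9%, 2.5% and 10.7% of all genes. In the CD8 comparisons 2, 3 and 3 had an unadjusted limma p under 0.05, against 17.3%, 12.4% and 6.35% of all genes. DESeq2 called 1, 0 and 3 of the reference genes in CD4 cells, while edgeR on recovered reads called 0 in CD8 cells.

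**Figure D4:**
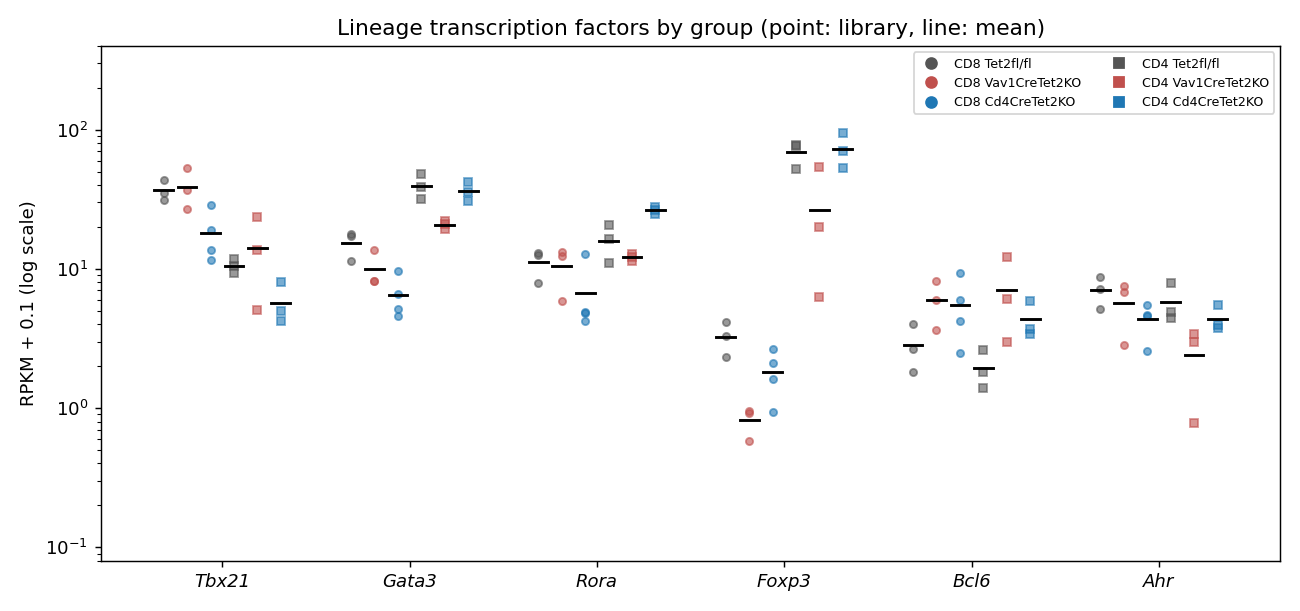
RPKM + 0.1 (vertical axis, log scale) of 6 helper lineage factors (Tbx21, Gata3, Rora, Foxp3, Bcl6 and Ahr) in the 6 groups. Points are libraries and lines are group means. Foxp3 and Gata3 lead in CD4 controls and Tbx21 in CD8 controls.

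Of 18 Th17 programme genes, which include 5 members, 11 were tested in CD8 and 16 in CD4 cells, and 0 rose or fell in any comparison. Unadjusted p was under 0.05 for 1, 3 and 0 of them in the CD8 and 3, 1 and 2 in the CD4 comparisons (in the order Vav1CreTet2KO with control, Cd4CreTet2KO with control, and Vav1CreTet2KO with Cd4CreTet2KO). DESeq2 called 2 of them in the last CD4 comparison and 0 in the others, and edgeR on recovered reads called 0 in CD8 cells. The list medians ran from -0.25 to 0.19, near those of all genes, which ran from -0.19 to 0.04. The shares of all genes at an unadjusted p under 0.05 were, in the same order, 17.3%, 12.4% and 6.35% in CD8 (limma) and 11.9%, 2.5% and 10.7% in CD4 cells (edgeR).

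The 19 genes of IL-23 and IL-17 signalling gave 0 calls of 8 tested in CD8 and 12 in CD4 cells, with 3, 3 and 0 in CD8 and 2, 0 and 2 in CD4 cells at an unadjusted p under 0.05. DESeq2 called 2 of them in Vav1CreTet2KO against Cd4CreTet2KO CD4 cells, and the other tools' counts were 0 elsewhere. The 13 AHR partners and targets gave 0 calls of 6 and 9 tested by limma and edgeR, with 0, 0 and 2 and then 3, 0 and 1 at an unadjusted p under 0.05, and 0 by the other tools. The 10 GATA and ROR family genes gave 0 calls of 4 and 7 tested, with 1, 2 and 0 and then 1, 1 and 2 at an unadjusted p under 0.05, and DESeq2 called 1 of them, in the last CD4 comparison. The list of 11 ROR and REV-ERB clock genes, not limited to targets of these proteins, gave 0 calls of 8 and 11 tested. In it, 2, 1 and 0 and then 1, 0 and 1 had an unadjusted p under 0.05, and the other tools called 0. For each of these lists, the shares of all genes at an unadjusted p under 0.05 are those given with the Th17 list.

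In CD8 cells limma called a few genes of other helper programmes lower, where it called 1.46% of all genes in Vav1CreTet2KO and 0.567% in Cd4CreTet2KO against control. Ccr8, a Th2 and regulatory T cell chemokine receptor and 1 of 7 tested Th2 genes, fell by 2.60 in Vav1CreTet2KO and by 2.13 in Cd4CreTet2KO against control (limma adjusted p = 0.0110 and 0.0320). Tox2, of the follicular helper list (8 tested), fell by 2.49 and 2.20 (limma adjusted p = 0.00980 and 0.0266). Of 10 tested regulatory T cell genes, Tnfrsf18 (GITR) fell by 1.75 and 1.61 in the 2 comparisons (limma adjusted p = 0.0260 and 0.0476), while Tnfrsf4 (OX40) and Ikzf2 (Helios) fell by 3.88 and 1.89 in Vav1CreTet2KO (limma adjusted p = 0.0414 and 0.0420). Il18rap, a subunit of the IL-18 receptor and 1 of 14 tested Th1 genes, fell by 1.43 in Cd4CreTet2KO (limma adjusted p = 0.0345). Without control replicate 1 each of these calls was lost, with limma adjusted p from 0.0703 to 0.358. With 1 library left out these calls were lost in 40 fits and kept in 18, and under other settings they were lost in 31 and kept in 27. EdgeR on recovered reads did not call Tnfrsf4 (adjusted p = 0.339) or Ikzf2 (0.106) in Vav1CreTet2KO, nor Ccr8 in Cd4CreTet2KO (0.0954). Over the regulatory T cell list, CD8 medians were -1.38 in Vav1CreTet2KO and -1.38 in Cd4CreTet2KO against control, where those of all genes were -0.11 and -0.15. Of its 10 tested genes, 7 and 8 had an unadjusted limma p under 0.05, against 17.3% and 12.4% of all genes. EdgeR on recovered reads called 1 and 2 of them. The median between the 2 knockout genotypes was -0.03. In CD4 cells none of these lists had a gene called by edgeR. The regulatory T cell list there had medians of -0.83, 0.17 and -0.87 in the 3 comparisons. Of its 12 tested genes, 5, 0 and 6 had an unadjusted edgeR p under 0.05, against 11.9%, 2.5% and 10.7% of all genes, and DESeq2 called 3, 0 and 3. The Th2 list had medians of -0.56, 0.21 and -0.78.

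Across the libraries of a table, the genes whose log2(RPKM + 1) was most like that of each member are given as a description, since the libraries share depth and genotype. Gata3 was most like Nmrk1 (Pearson r = 0.955), Zfp827 (0.932) and Rad54l2 (0.930) over 10 CD8 libraries and most like Ccdc117 (0.972), Hmgxb3 (0.966) and H2-Q4 (0.960) over 9 CD4 libraries. Rora was most like Ctla4 (0.929), Ulk3 (0.929) and Sf1 (0.917) in CD8 and Tnik (0.959), Gm44834 (0.953) and Dusp4 (0.950) in CD4 libraries. Ahr was most like Smarca5 (0.961), Hdac1 (0.957) and Samsn1 (0.954) in CD8 and Foxp4 (0.979), Zfp236 (0.970) and Maff (0.964) in CD4 libraries. No gene was among the nearest 3 of a member in both tables. Il17a was most like Nr1d2 (0.918) in CD8 and Trappc2l (0.960) in CD4 libraries, and Il23r most like Rab2b (0.959) in CD4 libraries.

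Among the members, Gata3 and Rora had r = 0.83 over the CD8 and 0.64 over the CD4 libraries, and Gata3 and Ahr 0.53 and 0.77. The neighbours Il17a and Il17f had r = 0.16 in CD8 and -0.11 in CD4 libraries. Gata3 and Il17a had r = -0.29 and -0.50. The low counts of the cytokine genes limit what these values describe.

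Markers were also read for gamma delta and innate type 17 cells, which make IL-17, and for group 2 innate lymphoid cells, which depend on GATA3 and RORα. Of 12 genes of gamma delta and innate type 17 cells, 7 were in the tables, and their sum was 10.2 to 13.9 RPKM in control, 6.17 to 28.5 in Vav1CreTet2KO and 14.7 to 23.0 in Cd4CreTet2KO CD4 libraries and 2.25 to 6.89 in CD8 libraries. Their defining genes Trdc and Sox13 reached at most 0.540 and 0.166 RPKM in CD4 libraries, while Trdc reached 5.87 RPKM in a CD8 Vav1CreTet2KO library. The 10 genes of group 2 innate lymphoid cells summed to 39.2 to 69.8 RPKM in control, 14.0 to 126 in Vav1CreTet2KO and 59.1 to 98.5 in Cd4CreTet2KO CD4 libraries. Most of that sum came from Areg (13.4 to 90.2 RPKM), Klrg1 (0 to 26.4) and Il1rl1 (0.314 to 18.1), which regulatory T cells can also express, while Nmur1 reached at most 0.186 RPKM in CD4 libraries and was at 0 in CD8 libraries. The part of such cells in the levels of Il17a, Rora and Gata3 was not tested.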

How the data were processed

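Total RNA of sorted TILs was made into libraries with the SMARTer Stranded Total RNA-seq Pico kit, per the labels' protocols, and sequenced as pairs of 150 bases. The authors deposited whole-number read counts and RPKM per gene for CD4 cells and RPKM for CD8 cells, per the file headers. The submitters' processing notes name GRCm38 and mm10. Their aligner and counter were not named in any source used here. Of all per-sample columns, 28 were read and 18, the TPM and CPM of the same CD4 libraries, were not used.

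For CD4 cells, the counts went into edgeR 4.0.16 (quasi-likelihood, TMM, minimum count 10 and minimum total 15) in R 4.3.3 over all 9 libraries. CD8 values were tested with limma 3.58.1 (trend) on log2(RPKM + 1) for genes reaching 1 RPKM in 3 or more libraries, over all 10. Benjamini-Hochberg adjustment ran over all genes, with calls at 0.05. CD8 reads were recovered from RPKM with relative gene lengths taken from the CD4 counts and RPKM (20159 genes), and 100% of 134905 values above 0 were whole within 0.01. Alternatives were DESeq2 1.42.0, other size factors, no filter, a pseudocount of 0.1, 2-group fits, a replicate block and leaving out libraries. Replicate numbers do not pair samples across genotypes, since each animal has 1 genotype. The fits were tested on simulated data. The limit that a count of 0 allows was set at 3 reads.

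Named were the 6 members, every gene called in 9 pathway lists, 16 reference genes of the helper lineages (1 is not reported here) and the 3 genes most like each member. The rule for the members uses names only, but members and lists were chosen with earlier results of these data known. In the main fits, the p-values set a group difference against the spread between animals within groups, estimated over all 3 genotypes of a cell type.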

Additional observations from a re-analysis of the deposited data

Results flagged for a closer look

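In the CD8 Cd4CreTet2KO group of 4 libraries, 3 values stood far above the others of their group. Rora in replicate 4 was at 12.7 RPKM, against 4.13 to 4.796 RPKM in replicates 1 to 3. Il17f in the same library was at 0.233 RPKM (14 reads), against 0.0230 RPKM or less in the others. Il23r in replicate 1 was at 0.578 RPKM (64 reads), against 0.0408 RPKM or less in the others. The gap to the nearest library was tested in 12 sets of values, and chance marks about 1 in 20 such sets where values are normally spread. Il17f and Il23r had libraries at 0 in this group, so that rate need not hold for them.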

How the results depend on the processing

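Of the members' differences under settings other than a left-out library, 164 kept their direction and side of the threshold, 3 gained a call and 2 changed direction; with a library left out, 161 stayed, 1 gained a call and 8 changed direction. Il17a in CD8 Vav1CreTet2KO against Cd4CreTet2KO (0.19) turned to -0.17 without Cd4CreTet2KO replicates 1 and 2 and to -0.28 with a pseudocount of 0.1, and ran from -0.45 (without Vav1CreTet2KO replicate 2) to 0.73 with a library left out. With a library left out in CD4 Cd4CreTet2KO against control, Gata3 (-0.01) ran from -0.16 to 0.15 (0.15 without Cd4CreTet2KO replicate 1, 0.14 without control replicate 1) and Il23r (-0.66) from -1.13 to 0.10 (without control replicate 3). In CD8 cells against control, Il17a in Cd4CreTet2KO (0.23) ran from -0.10 (without control replicate 1) to 0.51. In Vav1CreTet2KO, Il17a (0.42) ran from -0.21 (without replicate 2) to 0.97, Ahr (-0.32) from -0.54 to 0.053 and Rora (-0.12) from -0.34 to 0.21 (both without replicate 3). The cause was not tested.

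Of the members called (0 in each comparison), 1 was called in CD4 Vav1CreTet2KO against Cd4CreTet2KO by DESeq2 and without a filter (0 to 1 with a library left out), and 1 in CD8 Cd4CreTet2KO against control with only these groups fitted. Counts over all genes moved more. In CD4 Vav1CreTet2KO against control (1 call), DESeq2 gave 581, no filter 383, limma 2 and left-out libraries 0 to 819, with 819 without Vav1CreTet2KO replicate 3 and 19 without replicate 1. In CD4 Cd4CreTet2KO against control (4), DESeq2 gave 47, no filter 37, limma 2, the 2-group fit 8 and left-out libraries 0 to 4. In CD4 Vav1CreTet2KO against Cd4CreTet2KO (9), these gave 516, 403, 4 and 3, and 2 to 719, with 719 without Vav1CreTet2KO replicate 3 and 22 without replicate 1. In CD8 Vav1CreTet2KO against control (149; 46 higher, 103 lower), edgeR on recovered reads gave 91 (40 higher, 51 lower), no filter 20, a pseudocount of 0.1 87 and left-out libraries 0 to 234. In CD8 Cd4CreTet2KO against control (58; 8 higher, 50 lower), edgeR on recovered reads gave 36 higher and 28 lower and size factors 22 higher and 50 lower; no filter gave 8, the 2-group fit 286, a pseudocount of 0.1 13, leaving out replicates 1 and 2 0, and left-out libraries 0 to 39. In CD8 Vav1CreTet2KO against Cd4CreTet2KO (0), the 2-group fit gave 2 and left-out libraries 0 to 1.

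The replicate block gave 90, 0 and 0 genes in the CD8 comparisons (Vav1CreTet2KO and Cd4CreTet2KO with control, then with each other) and 3, 3 and 13 in the CD4 comparisons, and 0 members in each. Same-numbered libraries had correlated deviations of -0.08 to 0.07 in CD8 and -0.09 to 0.10 in CD4 cells over 9 pairs each. Pairs with different numbers ran from -0.16 to 0.24 in CD8 and from -0.10 to 0.11 in CD4 cells. No link by number was thus seen, although groups this small could hide a weak one. For Il17f and Il23r, depth limits any statement: in CD4 Vav1CreTet2KO replicate 1 a count of 0 allows 1.10 and 0.653 RPKM.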
